A study of Mus musculus with 6 samples.

Results

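The cytosolic ribosomal protein genes were examined in bulk RNA of castration-resistant mouse prostate tumours. Their members were the protein-coding genes whose symbols begin with Rpl or Rps, followed by a number with optional letters, or by a, p0, p1 or p2, in GENCODE M21 on GRCm38. The rule found 81 of the 21718 genes in the deposited count table, 32 of the small (40S) and 49 of the large (60S) subunit. All 6 recipients were mice of 1 genetically engineered strain that develops prostate tumours, so both groups share its engineered allele. At 6 weeks of age they received 900 rad of radiation and then donor bone marrow, castration followed at 8 weeks, and tumours were taken 16 weeks later. In one group, called the LysM-Cre+ marrow tumours here, the donors were F10fl/fl; LysM-Cre+ (3 samples, replicate numbers 1, 3 and 4). In the other group, called the Cre-negative marrow tumours, the donors were F10fl/fl without LysM-Cre (3 samples, with the same numbers). F10 encodes coagulation factor X, and LysM-Cre acts in myeloid cells, so that by this design the deletion is limited to donor-derived cells. How completely F10 was deleted, what the shared replicate numbers stand for and whether each sample was 1 animal are unknown here. The p-values therefore measure the spread between these samples, which may be technical.

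Each ribosomal protein is a structural or assembly part of a subunit, and the members are normally made in near-equal numbers to match the ribosomal RNA. Their mRNAs are abundant, short and stable, and many begin with a run of pyrimidines, the 5′ terminal oligopyrimidine tract, through which the mTOR pathway and the binding protein LARP1 control their translation. Some members have paralogues that are expressed in particular tissues, and Rpl5 and Rpl11 also bind Mdm2, the inhibitor of p53.

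The libraries held 9237308 to 11821588 counts. The first principal component of all genes took 47.6% of the variance and set Cre-negative sample 4 apart from the other 5. F10 had 7, 4 and 9 counts in the LysM-Cre+ marrow tumours and 2, 6 and 17 in the Cre-negative marrow tumours, too few to check the labels. The 10 prostate luminal markers, among them Pbsn, all had counts, and summed to 3087 to 3660 CPM (counts scaled to a common library size with TMM factors) in the LysM-Cre+ marrow tumours and 3957 to 6992 CPM in the Cre-negative marrow tumours. Of the 9 tested, 3 had a log2 fold change (LysM-Cre+ over Cre-negative) above 0 and 6 below 0. Their median was -0.68, and none passed in edgeR. At an unadjusted edgeR p under 0.05, 4 of the 9 were lower, where 4.74% of all genes were. Markers of other tissue were also unequal: the 14 adipocyte markers summed to 319 to 758 CPM in the LysM-Cre+ marrow tumours and 137 to 203 CPM in the Cre-negative marrow tumours, and no gene of that list was at 0 everywhere. Of the 12 adipocyte markers tested, 1 passed in edgeR (higher), and none did in the urothelial, smooth muscle, endothelial, fibroblast, T cell, B and plasma cell and myeloid lists, whose median log2 fold changes lay between -0.32 (B and plasma cell) and 2.17 (urothelial). The 7 urothelial markers summed to 421, 1887 and 455 CPM in LysM-Cre+ samples 1, 3 and 4. In Cre-negative samples 1, 3 and 4 they summed to 460, 464 and 170 CPM, so LysM-Cre+ sample 3 stood out. The part of such tissue in the ribosomal protein values was not tested.

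Ribosomal protein genes took 5.52%, 4.45% and 4.74% of all counts in the LysM-Cre+ marrow tumours 1, 3 and 4, against 6.52%, 5.37% and 4.60% in the Cre-negative marrow tumours 1, 3 and 4. The mitochondrially encoded genes took 3.14%, 3.23% and 4.58% of counts in the LysM-Cre+ marrow tumours and 2.45%, 3.23% and 5.75% in the Cre-negative marrow tumours. Their share was lowest in the sample with the highest ribosomal protein share, Cre-negative sample 1. It was highest in Cre-negative sample 4, whereas the lowest ribosomal protein share was that of LysM-Cre+ sample 3. The 95% Wilson intervals reached at most 0.0148 percentage points to either side, which covers counting error only. The groups overlapped, since Cre-negative sample 4 lay below LysM-Cre+ samples 1 and 4. The LysM-Cre+ marrow tumours averaged 4.90% ± 0.556 and the Cre-negative marrow tumours 5.50% ± 0.964 (SD, n = 3 each). Small-subunit genes took 2.10% ± 0.260 of counts in the LysM-Cre+ marrow tumours and 2.35% ± 0.462 in the Cre-negative marrow tumours. Large-subunit genes took 2.81% ± 0.297 in the LysM-Cre+ marrow tumours and 3.15% ± 0.503 in the Cre-negative marrow tumours, differences smaller than the SD of the Cre-negative group in both subunits. On the log2 scale the ratio of the mean shares of all members was -0.16, also with mitochondrially encoded genes left out of the total, and it was -0.02 without Cre-negative sample 1. In bulk tissue, fewer cells of a type and less RNA per cell cannot be told apart.

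**Figure D1:**
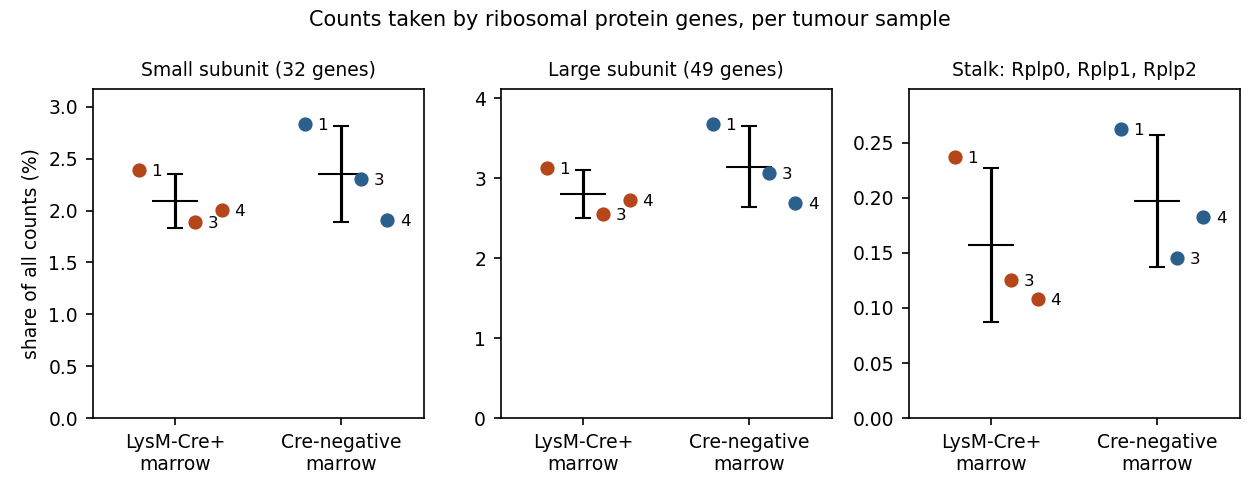
Share of all counts (percent, axes from 0) taken by small-subunit genes, large-subunit genes and the 3 stalk genes in each tumour sample, numbered by replicate, with the group mean and SD as bars. In both marrow groups replicate 1 is the highest sample in all 3 panels, and the groups overlap.

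Levels of single genes spread widely, and a few members lay far below the rest. To compare genes, the mean CPM of the 6 samples was divided by the length of the principal transcript. The median of the tested members was 787 CPM per kb, and the 74 members with a mean count of at least 1000 lay between 132 and 2894 CPM per kb. The highest were Rps27, a zinc-finger protein of the small subunit, at 2894 CPM per kb, Rps12, a small-subunit protein, at 2314 CPM per kb, and Rpl41, the shortest ribosomal protein, at 2092 CPM per kb. Rps20 was low on this scale, at 177 CPM per kb, with an annotated transcript of 3706 bases.

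The other 7 members had far fewer counts. Of these, 4 share exon sequence on the same strand with another annotated long gene. The overlap covers 91.6% of the principal transcript of Rps10, 71.5% of that of Rpl24, 63.1% of that of Rpl36al and 59.3% of that of Rpl13a, and no other member has such an overlap. Rps10 and Rpl24 encode core proteins of the small and the large subunit. Rps10 had 69, 78 and 76 counts in the LysM-Cre+ marrow tumours and 84, 55 and 53 counts in the Cre-negative marrow tumours, and Rpl24 had 7, 8 and 12 counts in the LysM-Cre+ marrow tumours, against 15, 12 and 17 counts in the Cre-negative marrow tumours. Rpl36al had 8, 7 and 13 counts in the LysM-Cre+ marrow tumours, against 15, 14 and 22 counts in the Cre-negative marrow tumours, and these counts did not overlap. For Rpl24 the highest LysM-Cre+ and the lowest Cre-negative count were both 12, and its groups were apart only after scaling, by 1.02 CPM in that LysM-Cre+ sample against 1.03 CPM in that Cre-negative one. Their differences were -0.76 ± 0.42, -0.92 ± 0.45 and 0.18 ± 0.27 log2 units for Rpl24, Rpl36al and Rps10 (SE, edgeR adjusted p = 0.574, 0.520 and 0.876). Rpl13a, a large-subunit protein, had 298, 343 and 440 counts in the LysM-Cre+ marrow tumours, against 425, 349 and 283 counts in the Cre-negative marrow tumours. The handling of reads shared between genes is unknown here, so these 4 levels are uncertain and cannot be read as low expression. The other 3 low members, Rpl39l, Rps27rt and Rpl3l, are paralogues of Rpl39, Rps27 and Rpl3.

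The 5′ tract was looked up at the RefSeq starts of GRCm38.p6, which were available for 61 of the 81 members. A run of at least 6 pyrimidines (C or T, sense strand) touching the 5 bases on either side of the start was found in 30 members (49.2%), against 20.1% of the 27025 genes with a promoter entry and 20.2% of tested genes. A run of at least 8 was found in 32.8% of members and 9.30% of all entries. Purine runs (A or G) of at least 6 bases, counted in the same way, were found in 6.56% of members and 21.5% of all entries. RefSeq starts can lie some bases from the start used in the tumour, so a missing run says nothing about the mRNA. The 7-letter sequence CCGGAAG, a core that ETS factors bind, stood on either strand of the 300-base promoter entry in 39.3% of members, against 9.12% of all entries and 16.7% of those of tested genes, and TATAAA on either strand stood in 8.20% of members, against 14.2% of all entries and 7.94% of those of tested genes. The members with a run of at least 6 had a median log2 fold change of -0.23 (29 tested), and those with a shorter run -0.27 (31 tested).

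The 15 bases before and 15 after the start are printed for 4 members among the 5 of smallest p in their subunit and for 3 genes from the paralogue pairs, to show how the tract differs among them, 5′ to 3′ on the sense strand, with the pyrimidine run at the start in capitals. The run is 18 bases in Rpl35 (chr2:39005117-39005146, minus strand), 10 in Rpl38 (chr11:114668565-114668594, plus strand), 11 in Rps18 (chr17:33955651-33955680, minus strand) and 4 in Rps28 (chr17:33824548-33824577, minus strand). It is 9 bases in both Rps27 (chr3:90213634-90213663, minus strand) and Rps27l (chr9:66946071-66946100, plus strand), and 4 in the muscle paralogue Rpl3l (chr17:24727811-24727840, plus strand). In Rps27l and Rpl3l the run ends before the start.
Rpl35: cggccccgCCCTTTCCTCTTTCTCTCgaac
Rpl38: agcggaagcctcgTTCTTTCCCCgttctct
Rps18: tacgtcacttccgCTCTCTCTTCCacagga
Rps28: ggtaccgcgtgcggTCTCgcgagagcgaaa
Rps27: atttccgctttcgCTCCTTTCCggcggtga
Rps27l: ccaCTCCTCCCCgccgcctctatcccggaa
Rpl3l: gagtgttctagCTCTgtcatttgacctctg

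Between the marrow groups, 74 of the 80 tested members (92.5%) had a log2 fold change below 0, LysM-Cre+ over Cre-negative, where 52.7% of all 15963 genes tested did. Genes of 1 library are not independent, and in some samples the members moved together. In Cre-negative sample 1, 76 of 80 lay above their mean, and in LysM-Cre+ sample 3 only 5 did. The counts of members here and below are therefore descriptions, and not that many separate results. None of the 80 passed the edgeR quasi-likelihood test adjusted over all genes at 0.05, at which 0.0439% of all genes passed. At an unadjusted p under 0.05, 5 members were lower (6.25% of members, against 4.74% of all genes) and 1 was higher (6.15% of all genes were). DESeq2 called 1 member, Rpl3l, and 3.02% of all genes. The median log2 fold change was -0.25 (quartiles -0.37 and -0.13), against -0.02 for all genes tested. It was -0.24 for the 32 small-subunit and -0.25 for the 48 large-subunit members. Values of the groups did not overlap, with the LysM-Cre+ samples lower, in 15 members (18.8%, against 7.67% of all genes). With the replicate number as a block, 23 members were lower at an unadjusted p under 0.05 (28.8%, against 6.76% of all genes). In that fit 1 member was higher, and the share of all genes higher was not counted. Again none passed the adjusted threshold, as 0.0125% of all genes did, the lowest adjusted p being 0.13 in edgeR. The median was -0.12 without Cre-negative sample 1 and -0.14 without LysM-Cre+ sample 3, and it was -0.29 without Cre-negative sample 4, the sample that stands apart. The number of members below 0 was 62, 66 and 78 without these samples.

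**Figure D2:**
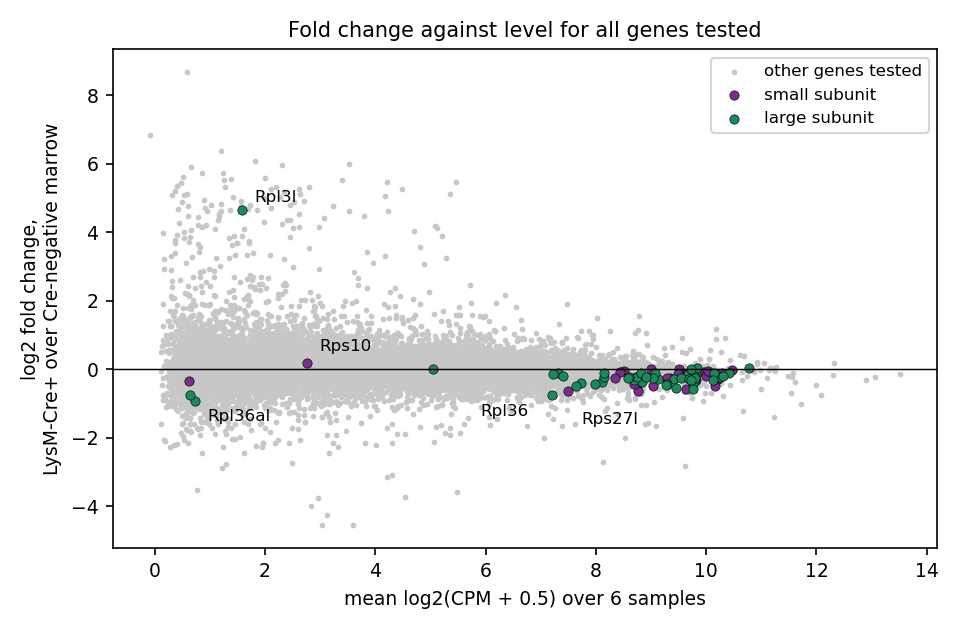
Log2 fold change, LysM-Cre+ over Cre-negative marrow tumours, against mean log2(CPM + 0.5) of the 6 samples for all 15963 genes tested, with small-subunit and large-subunit genes in colour. The abundant members form a tight group just below 0, with a median of -0.25 over all tested members, and Rpl3l lies farthest from it at 4.64.

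The member medians by sample show how much of that shift lies between samples of a group. Relative to each gene's mean over the 6 samples, the median member stood at 0.02, -0.27 and -0.10 log2 units in LysM-Cre+ samples 1, 3 and 4, and at 0.27, 0.07 and -0.00447 in Cre-negative samples 1, 3 and 4. Cre-negative sample 1 was the highest, with 76 of 80 members above their mean, and LysM-Cre+ sample 3 the lowest, with 5 of 80. Across numbers the groups overlapped, since LysM-Cre+ sample 1 lay above Cre-negative sample 4, and the pooled SD within groups was 0.14 log2 units. Samples of the same replicate number are called pairs here for their number only, and no source used here shows that they were matched. Between samples of the same replicate number, the member median was lower in the LysM-Cre+ sample in all 3 pairs. The median of the members' differences, LysM-Cre+ minus Cre-negative, was -0.27, -0.31 and -0.14 log2 units in pairs 1, 3 and 4, against 0.00139, -0.02 and -0.00329 for all genes tested. In these pairs 79, 78 and 54 of the 80 members were lower in the LysM-Cre+ sample (98.8%, 97.5% and 67.5%), where 49.8%, 52.8% and 50.3% of all genes were.

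In the large subunit the smallest p-values after Rpl3l belonged to Rpl37, Rpl27, Rpl38 and Rpl35, core proteins of that subunit. Rpl37 had 614, 479 and 504 CPM in the LysM-Cre+ marrow tumours, against 833, 666 and 700 CPM in the Cre-negative marrow tumours. Each LysM-Cre+ sample lay below each Cre-negative one, and the difference was -0.46 ± 0.17 log2 units (SE, edgeR adjusted p = 0.364). Rpl27 averaged 169 ± 26.4 CPM in the LysM-Cre+ marrow tumours and 236 ± 36.9 CPM in the Cre-negative marrow tumours (SD, n = 3 each), at -0.48 ± 0.17 (edgeR adjusted p = 0.366), and its highest LysM-Cre+ sample lay above the lowest Cre-negative one. Rpl38, which in mouse is known for its role in translating Hox mRNAs, had 240, 186 and 235 CPM in the LysM-Cre+ marrow tumours, against 338, 272 and 276 CPM in the Cre-negative marrow tumours. It differed by -0.42 ± 0.16 log2 units (SE, edgeR adjusted p = 0.389), and the groups did not overlap. Rpl35 had 282, 222 and 226 CPM in the LysM-Cre+ marrow tumours, against 349, 300.3 and 306 CPM in the Cre-negative marrow tumours, also without overlap (-0.39 ± 0.15, edgeR adjusted p = 0.395).

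In the small subunit, Rps27l led, followed by Rps14, Rps18, Rps7 and Rps28. Rps14, whose human gene is lost in the 5q- syndrome, had 1209, 892 and 825 CPM in the LysM-Cre+ marrow tumours, against 1691, 1412 and 1050 CPM in the Cre-negative marrow tumours. These ranges overlapped, and the difference of -0.51 ± 0.23 log2 units (SE, edgeR adjusted p = 0.494) went to -0.31 without Cre-negative sample 1. Rps7 had 603, 518 and 596 CPM in the LysM-Cre+ marrow tumours, against 684, 674 and 684 CPM in the Cre-negative marrow tumours. The groups were apart, at a difference of only -0.25 ± 0.14 log2 units (SE, edgeR adjusted p = 0.570). Rps18 was at -0.31 ± 0.16 and Rps28 at -0.42 ± 0.23 (SE), with edgeR adjusted p of 0.544 and 0.577. Rpl11, the Mdm2-binding protein of the large subunit, had 859, 730 and 809 CPM in the LysM-Cre+ marrow tumours, against 1044, 896 and 1060 CPM in the Cre-negative marrow tumours. It differed by -0.32 ± 0.15 log2 units (SE, edgeR adjusted p = 0.508), without overlap. Rpl5, its partner in binding Mdm2, had 783, 744 and 801 CPM in the LysM-Cre+ marrow tumours, against 949, 999.8 and 646 CPM in the Cre-negative marrow tumours, so the ranges overlapped (-0.16 ± 0.19, edgeR adjusted p = 0.832).

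Most members kept close to the module's course. Over the 6 samples the SD of log2 CPM had a median of 0.22 in the 75 members with a mean count of at least 100. It was 0.29 in all genes tested, which include genes of lower counts. No set of matched counts was compared, so this does not show the members to be more uniform than other genes. When the member median of each sample was subtracted, the median SD was 0.17, and 48 of the 75 members stayed under 0.2. Rps23, which sits at the decoding centre, was the closest at 0.0154. The remaining members departed from the course, 23 of them with an SD between 0.2 and 0.5 and 4 with more than 0.5. These 4 were Rpl36 at 1.10, Rps29 at 0.67, Rplp2 at 0.63 and Rplp1 at 0.53.

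Rpl36, a large-subunit protein, had 303, 78.7 and 41.7 CPM in the LysM-Cre+ marrow tumours 1, 3 and 4, against 377, 114 and 227 CPM in the Cre-negative marrow tumours 1, 3 and 4. Replicate 1 was highest in both groups, and the difference between groups was smaller than its standard error (-0.77 ± 0.78, SE, edgeR adjusted p = 0.789). That value was -1.96 without LysM-Cre+ sample 1, -0.45 without LysM-Cre+ sample 3, -0.33 without LysM-Cre+ sample 4 and -0.25 without Cre-negative sample 1. Rps29, a small zinc-finger protein, had 673, 280.4 and 195 CPM in the LysM-Cre+ marrow tumours, against 847, 383 and 549.8 CPM in the Cre-negative marrow tumours, again with replicate 1 on top in both.

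The stalk is the flexible arm of the large subunit that recruits translation factors, built from Rplp0 as its base with dimers of Rplp1 and Rplp2. Rplp0 had 656, 518 and 457 CPM in LysM-Cre+ samples 1, 3 and 4, against 701, 592 and 907 CPM in Cre-negative samples 1, 3 and 4. Rplp1 had 1343, 589.7 and 496 CPM in the LysM-Cre+ samples, against 1555, 736 and 963 CPM in the Cre-negative ones. Rplp2 had 303, 123 and 101 CPM in the LysM-Cre+ samples, against 343, 145 and 121 CPM in the Cre-negative ones. The ratio of Rplp1 to Rplp0 counts was 2.05, 1.14 and 1.08 in LysM-Cre+ samples 1, 3 and 4, and 2.22, 1.24 and 1.06 in Cre-negative samples 1, 3 and 4. Replicate 1 was highest in both groups, and the values of the groups interleaved. The ratio of Rplp2 to Rplp0 was 0.461, 0.237 and 0.222 in the LysM-Cre+ marrow tumours and 0.490, 0.245 and 0.134 in the Cre-negative marrow tumours, and replicate 1 again stood apart in both. None of the 3 genes passed the test (edgeR adjusted p = 0.525 for Rplp0, 0.789 for Rplp1 and 0.930 for Rplp2).

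**Figure D3:**
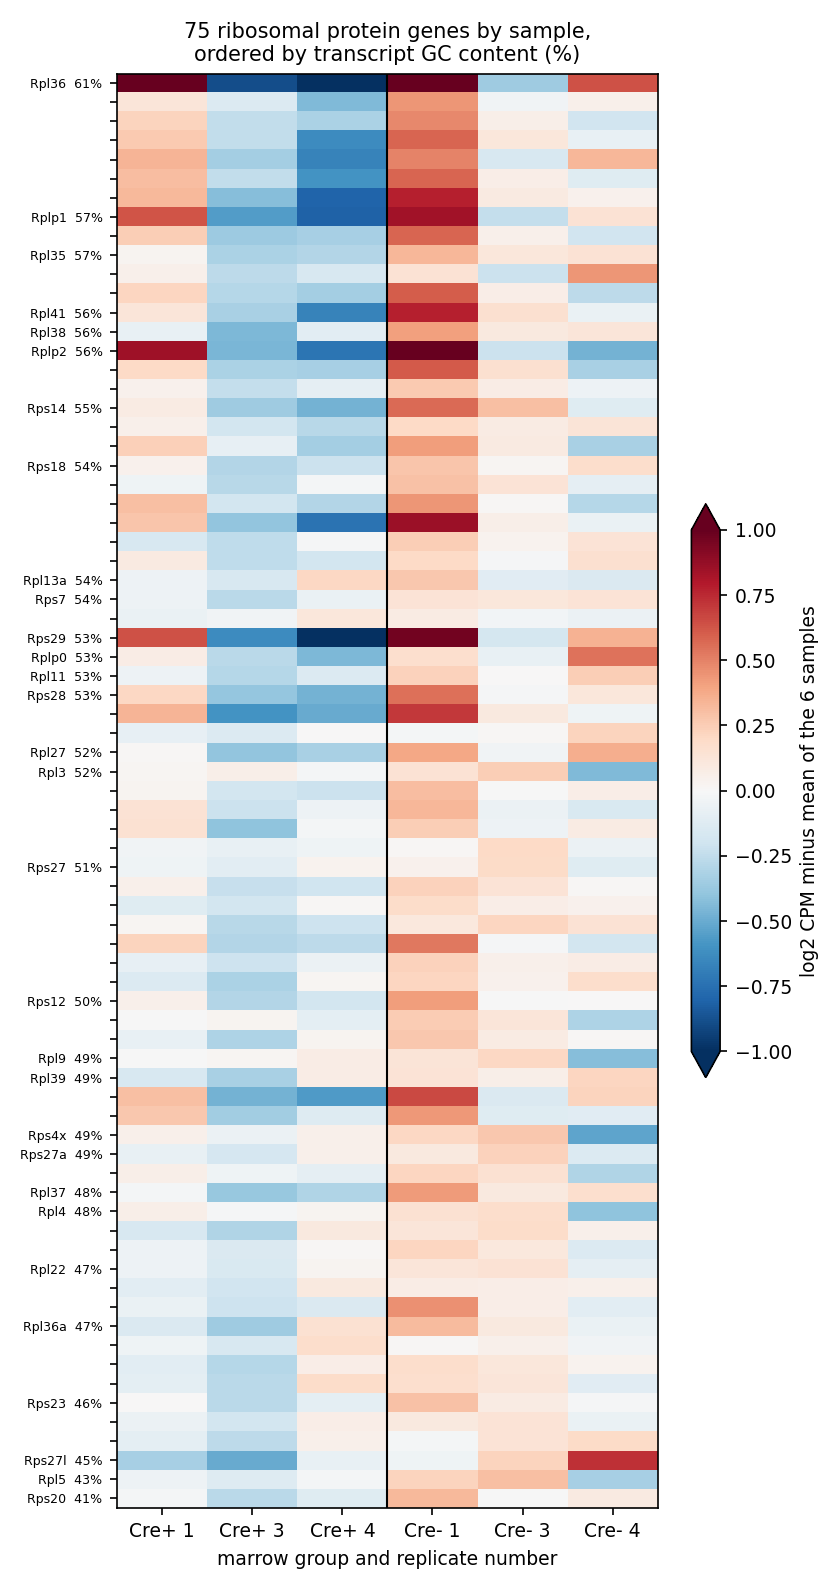
Log2 CPM minus the gene's mean over the 6 samples (colour, clipped at 1 log2 unit either way) for the 75 members with a mean count of at least 100, in rows ordered by the GC content of the principal transcript and labelled where the text names the gene, and the 6 samples in columns, Cre+ for LysM-Cre+ and Cre- for Cre-negative marrow. The GC-rich members at the top are high in replicate 1 of both groups and low in LysM-Cre+ sample 4.

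The departures went with base composition in some samples, and with transcript length in some. Member transcripts had a median GC content of 51.8% (41.3% to 60.8%), and the 10 members of widest departure, which include those 4, had a median of 55.9%. GC content and length are those of the annotated principal transcript, and which isoforms the tumours used was not measured. The lowest GC content was that of Rps20, with its annotated 3706 bases. Across the 75 members, the correlation (Pearson's r) of GC content with a gene's deviation was 0.57, -0.29 and -0.62 in LysM-Cre+ samples 1, 3 and 4, and 0.56, -0.40 and 0.10 in Cre-negative samples 1, 3 and 4. With log2 transcript length, r was -0.17, 0.38 and 0.26 in LysM-Cre+ samples 1, 3 and 4. It was -0.24, 0.15 and -0.25 in Cre-negative samples 1, 3 and 4. Length had the larger r in size in LysM-Cre+ sample 3 and Cre-negative sample 4. Whether composition or length underlies the departures was not tested. Genes of 1 library share its preparation and depth and are not independent, so these values are descriptions. Across 15926 genes the correlations with GC content were 0.32, -0.00632 and -0.34 in the LysM-Cre+ marrow tumours. They were 0.28, -0.14 and -0.07 in the Cre-negative marrow tumours. Their signs matched those in the members in every sample except Cre-negative sample 4, with LysM-Cre+ sample 3 near 0. In the 40 members with higher GC content the median deviation was 0.12, -0.27 and -0.32 log2 units in LysM-Cre+ samples 1, 3 and 4. It was -0.05, -0.26 and -0.02 in the 40 with lower GC content. In Cre-negative samples 1, 3 and 4 it was 0.42, 0.03 and -0.002 in the GC-rich 40, against 0.21, 0.10 and -0.00447 in the other 40. The median log2 fold change between the groups was -0.30 in the GC-rich 40 and -0.21 in the other 40. With a GC correction, chosen after seeing the data, the median of all members was -0.24, and 0 members passed with edgeR. Joined to the replicate block it was -0.24 and again 0 members passed.

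**Figure D4:**
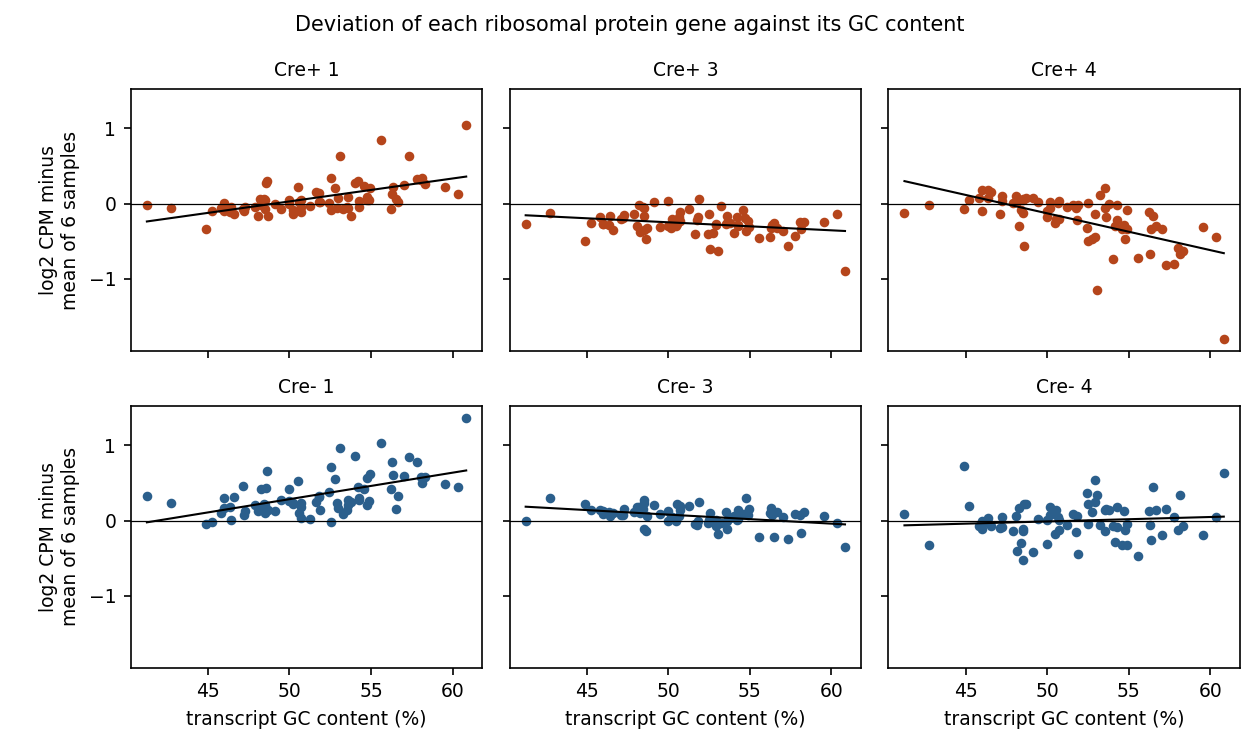
Deviation of each of the 75 well-counted members from its mean over the 6 samples (log2 CPM) against the GC content of its transcript (percent), 1 panel per sample, with a least-squares line. The line climbs in replicate 1 of both marrow groups (r = 0.57 in LysM-Cre+ and 0.56 in Cre-negative) and descends in LysM-Cre+ sample 4 (r = -0.62).

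A second departure lay in Cre-negative sample 4, the library that stands apart. Among the 75 well-counted members, the lowest there relative to their own means were Rps4x (-0.52 log2 units), Rplp2 (-0.47), Rpl3 (-0.44), Rpl9 (-0.42) and Rpl4 (-0.40). Rps4x, the X-linked small-subunit protein, had 1461, 1355 and 1467 CPM in the LysM-Cre+ marrow tumours, against 1630, 1706 and 982 CPM in the Cre-negative marrow tumours. Rpl3, at the peptidyl transferase centre, had 859, 883 and 838 CPM in the LysM-Cre+ marrow tumours, against 936, 1004 and 623 CPM in the Cre-negative marrow tumours. Both had fold changes near 0 (-0.01 ± 0.23 and 0.01 ± 0.20, SE, edgeR adjusted p = 0.993 for both), and without that sample they stood at -0.23 and -0.18. Rpl9, a large-subunit protein, was at 0.03 ± 0.19 (edgeR adjusted p = 0.973). The highest well-counted members in the same sample were Rps27l (0.73 log2 units), Rpl36 (0.63) and Rplp0 (0.54).

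Several members have a paralogue, and Rpl3l was the member that differed most between the groups. It replaces Rpl3 in the ribosomes of striated muscle. Rpl3l (chromosome 17, 24727820 to 24736143, plus strand, GRCm38) had 130, 55 and 174 counts in the LysM-Cre+ marrow tumours, against 10, 3 and 1 counts in the Cre-negative marrow tumours. Every LysM-Cre+ sample lay above every Cre-negative one, with means of 11.0 ± 5.57 CPM in the LysM-Cre+ marrow tumours and 0.428 ± 0.435 CPM in the Cre-negative marrow tumours (SD, n = 3 each). The log2 fold change was 4.64 ± 0.74 (SE), and at an edgeR adjusted p of 0.0868 it did not pass. It passed in DESeq2 (adjusted p = 2.38e-08) and, in edgeR, without Cre-negative sample 1 (5.83, adjusted p = 0.0431), and the edgeR adjusted p ran up to 0.360 when other samples were left out. Rpl3l made up 1.56%, 0.524% and 1.74% of the counts of Rpl3 and Rpl3l together in the LysM-Cre+ marrow tumours, against 0.0985%, 0.0256% and 0.0166% in the Cre-negative marrow tumours. The Wilson 95% interval was 0.403% to 0.681% in the lowest LysM-Cre+ sample and 0.0535% to 0.181% in the highest Cre-negative one, so the smallest gap exceeded counting error.

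The summed skeletal muscle markers put the 6 samples in the same order as Rpl3l, though single markers did not all do so. All 19 genes of that list had counts, and they summed to 2716, 1146 and 2776 CPM in LysM-Cre+ samples 1, 3 and 4, against 219.7, 70.1 and 37.2 CPM in Cre-negative samples 1, 3 and 4. Of the 18 tested genes of the list, 17 were above 0 without overlap between the groups (8.99% of all genes were), none passed in edgeR at an adjusted p of 0.05, and 16 were higher at an unadjusted p under 0.05 (6.15% of all genes were). The median log2 fold change of the list was 4.53, close to that of Rpl3l. Tnni2, a fast-muscle troponin, had 180.8, 67.0 and 229 CPM in the LysM-Cre+ marrow tumours, against 14.9, 6.69 and 4.46 CPM in the Cre-negative marrow tumours. The part of muscle tissue in the Rpl3l values was not tested.

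Rps27l, the paralogue of Rps27 that p53 is known to induce, had 144, 128 and 172 CPM in the LysM-Cre+ marrow tumours, against 176, 211 and 301 CPM in the Cre-negative marrow tumours. The groups did not overlap, and the lowest Cre-negative sample lay just above the highest LysM-Cre+ one. The difference was -0.63 ± 0.22 log2 units (SE, edgeR adjusted p = 0.346), and -0.39 without Cre-negative sample 4. Rps27 itself had 969, 924 and 1022 CPM in the LysM-Cre+ marrow tumours, against 1023, 1139 and 914 CPM in the Cre-negative marrow tumours, with overlap (-0.08 ± 0.15, edgeR adjusted p = 0.907). Rps27l made up 12.9%, 12.2% and 14.4% of the counts of the pair in the LysM-Cre+ marrow tumours, against 14.7%, 15.6% and 24.7% in the Cre-negative marrow tumours. The intronless copy Rps27rt had 13, 7 and 11 counts in the LysM-Cre+ marrow tumours, against 18, 7 and 14 counts in the Cre-negative marrow tumours, and reads of Rps27 may be split with it.

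Of the 12 tested genes of the p53 and ribosome checkpoint list, 6 were above 0, 6 were below 0 and 0 passed in edgeR, with a median of -0.01. At an unadjusted p under 0.05, 1 was higher and 1 lower, where 6.15% and 4.74% of all genes were. Bax, a p53 target that promotes apoptosis, had 46.2, 42.7 and 37.6 CPM in the LysM-Cre+ marrow tumours, against 76.1, 62.8 and 96.6 CPM in the Cre-negative marrow tumours (-0.90 ± 0.18, SE, edgeR adjusted p = 0.131). Cdkn1a, the p53 target encoding p21, had 72.1, 96.7 and 84.6 CPM in the LysM-Cre+ marrow tumours, against 70.0, 62.1 and 50.8 CPM in the Cre-negative marrow tumours (0.47 ± 0.17, edgeR adjusted p = 0.368). These 2 targets thus lay on opposite sides of 0, each without overlap between the groups.

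In the other pairs no gene passed the edgeR test. Rpl22l1 lies outside the naming rule and made up 17.0%, 16.5% and 19.8% of the counts of Rpl22 and Rpl22l1 in the LysM-Cre+ marrow tumours, against 18.4%, 17.6% and 19.4% in the Cre-negative marrow tumours. Its log2 fold change was -0.17 ± 0.15, and that of Rpl22 was -0.12 ± 0.14 (SE, edgeR adjusted p = 0.751 and 0.822). Rpl7l1, a relative of Rpl7 outside the rule, was at -0.03 ± 0.13 (edgeR adjusted p = 0.954). Rpl36a was at -0.22 ± 0.18 and Rpl39 at -0.27 ± 0.15 (edgeR adjusted p = 0.718 and 0.579). Rpl39l, known for its expression in male germ cells in mouse, had 3, 1 and 0 counts in the LysM-Cre+ marrow tumours, against 0, 3 and 5 counts in the Cre-negative marrow tumours, below the filter on low counts, and no fold is given.

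**Figure D5:**
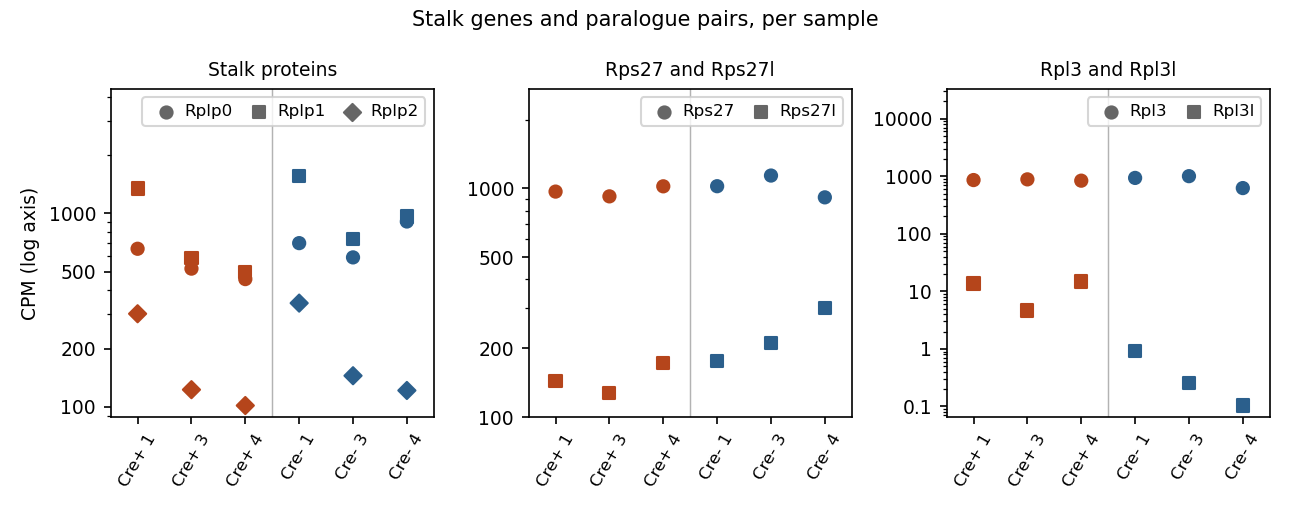
CPM (log axis) of the stalk genes and of the pairs Rps27 with Rps27l and Rpl3 with Rpl3l in each tumour sample, LysM-Cre+ (Cre+) left of Cre-negative (Cre-), with marker shapes for the genes. Rpl3l is higher and Rps27l lower in all 3 LysM-Cre+ samples, and Rplp1 lies well above Rplp0 in replicate 1 of both groups (ratios of 2.05 in LysM-Cre+ and 2.22 in Cre-negative).

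Ribosomal protein genes outside the naming rule were also tested, and none passed in edgeR. Fau, whose product is a ubiquitin-like protein fused to the small-subunit protein eS30, had 455, 248 and 213 CPM in the LysM-Cre+ marrow tumours, against 615, 335 and 331 CPM in the Cre-negative marrow tumours. Replicate 1 was highest in both groups, as for Rpl36 and Rps29 (-0.48 ± 0.36, SE, edgeR adjusted p = 0.688). Rack1, a scaffold on the small subunit, was at -0.05 ± 0.17 (edgeR adjusted p = 0.942). Rps27a, the ubiquitin fusion of the small subunit, is a member and was at -0.13 ± 0.16 (edgeR adjusted p = 0.825).

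The genes that make and use ribosomes were given by lists, chosen with earlier results of these data known. Of 77 mitochondrial ribosomal protein genes, which build the separate ribosome of mitochondria, 59 were below 0 (52.7% of all genes were), with a median of -0.16. At an unadjusted p under 0.05, 7 of the 77 were lower (4.74% of all genes were), 11 did not overlap with the LysM-Cre+ samples lower (7.67% of all genes), and 0 passed in edgeR. Of 35 ribosome biogenesis genes, 18 were above 0, with a median of 0.01, and of 14 RNA polymerase I genes, 4 were above 0, with a median of -0.05. Nhp2, a box H/ACA snoRNP protein of the biogenesis list, had 74.7, 62.0 and 61.0 CPM in the LysM-Cre+ marrow tumours, against 89.6, 85.8 and 105 CPM in the Cre-negative marrow tumours (-0.51 ± 0.14, SE, edgeR adjusted p = 0.262). Elongation factors and other mRNAs known to carry the tract (14 genes) had a median of -0.04 with 6 above 0, and initiation factors (27 genes) had a median of -0.03 with 10 above 0. Eef1a1, the factor that brings tRNAs to the ribosome, was at 0.16 ± 0.23 and Eef2, the translocase, at -0.09 ± 0.27 (SE, edgeR adjusted p = 0.858 and 0.941). Of 11 snoRNA host genes, 10 were below 0, with a median of -0.15, and of 17 tested genes of mTOR and tract control, 9 were above 0. Eif4ebp1, an mTOR-controlled repressor of initiation, had 33.6, 30.3 and 27.0 CPM in the LysM-Cre+ marrow tumours, against 39.3, 48.6 and 103 CPM in the Cre-negative marrow tumours (-1.07 ± 0.35, SE, edgeR adjusted p = 0.327), and -0.54 without Cre-negative sample 4. In the lists of this paragraph 0 genes passed in edgeR, and the mTOR and biogenesis lists each had 1 gene lower at an unadjusted p under 0.05.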

How the data were processed

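The deposited table holds read counts per Ensembl gene, made by the authors from poly(A) RNA with a stranded kit and single-end 120-base reads, per the labels' protocols. STAR 2.7.10a, GRCm38 and DESeq2 are named in the submitters' processing notes. No source used here gives the counting program, its strand setting or its treatment of reads shared between genes. Symbols, gene types and principal transcripts came from GENCODE M21, and 113 rows have no symbol there. A further 4 symbols that match the pattern are of pseudogene type and were left out.

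Counts were fitted with edgeR 4.0.16 (R 4.3.3, TMM, filterByExpr with a minimum count of 10, robust quasi-likelihood test, 3 against 3 samples, no covariate), and p-values were adjusted over all 15963 genes tested with Benjamini-Hochberg at 0.05. Standard errors are the log2 fold change divided by the root of F. Descriptions per sample used log2(CPM + 0.5). Scripts were tested on simulated data. The groups share replicate numbers, so the number was also fitted as a block. Deviations from the group mean correlated between same-numbered samples at r = 0.37, 0.14 and 0.19 for numbers 1, 3 and 4 over all genes. Over the members r was 0.81, 0.44 and 0.17. Correlations between samples of different numbers were not computed, so these values cannot show that the number itself matters. Other alternatives were DESeq2 1.42.0, limma 3.58.1 (voom), other scalings and filters, and leaving out each sample. A GC correction and a share without the 5 members of widest spread were chosen after seeing the data.

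Named genes were the paralogues, the 5 members of each subunit with the smallest p, the 3 highest and 3 lowest per kb, the 3 farthest above and below the member median, and the 2 genes of smallest p in each list. Rpl11, Rpl5, Rps29, the stalk genes, Rpl4, Rps23, Rps20, Rpl13a, Rack1, Eef1a1 and Eef2 were named after their values were seen. The members and lists were chosen with earlier results of these data known. Some genes and labels are not reported here.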

Additional observations from a re-analysis of the deposited data

How the results depend on the processing

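Of the 65 gene results, in 1105 refits, 1063 kept their direction and side of the threshold, 19 became significant, 4 lost significance and 19 changed sign. The count of genes called, 7 with edgeR, was 481 with DESeq2, 2 with limma-voom, 2 with at least 1 CPM in 3 samples, 3 with the non-robust fit, 2 with the replicate block, 85 at an adjusted p under 0.1, 12 with the GC correction, 2 with the GC correction and the replicate block, and 0 to 72 when 1 sample was left out. The count of members called, 0 with edgeR, was 1 with DESeq2 and 1 at an adjusted p under 0.1, and 0 to 1 when 1 sample was left out. The 6 members at an unadjusted p under 0.05 became 10 with DESeq2 and 24 with the replicate block. They became 21 with the GC correction and the replicate block, and 1 to 17 when 1 sample was left out. Shares of all genes were not counted for these refits, other than 6.76% lower with the replicate block. The other counts can therefore not be set against a background. The cause of these changes between settings was not tested.

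The median log2 fold change of the members was below 0 in every setting run, and relative to the median of all genes it lay between -0.30 and -0.15. When 1 sample was left out it ran from -0.30 to -0.12, from -0.29 to -0.0814 in the small subunit and from -0.30 to -0.13 in the large subunit, and the log2 ratio of shares ran from -0.28 to -0.02. The replicate block changed no call of a member.

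Of the named genes, 7 changed sign under some setting. Rps4x, at -0.01, was at 0.00388 with upper-quartile scaling, 0.0348 with limma-voom, 0.00577 with no filter, 0.00413 with at least 1 CPM, 0.0282 with the replicate block, 0.00933 with the GC correction and the replicate block, and -0.23 to 0.13 when 1 sample was left out. Leaving out 1 sample gave -0.0799 to 0.0446 for Rpl7l1, -0.58 to 0.18 for Tagln (-0.23 with all samples), -0.0405 to 0.95 for Rps4l (0.22 with all samples), -0.16 to 0.0022 for Rps27, -0.18 to 0.14 for Rpl3 and -0.14 to 0.15 for Rpl9. Rpl39l, Rpl24, Rpl36al and Rps27rt had at most 22 counts in a sample, which limits their precision whatever the reason for the low counts, and 3 samples in each group limit every test.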
